A study of Homo sapiens with 15 samples.

Results

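The S100 calcium-binding proteins described here are 10 genes taken by symbol from the deposited table of 19612 genes, namely S100A2, S100A3, S100A4, S100A6, S100A10, S100A11, S100A13, S100A14, S100A16, and S100P. RNA was sequenced from H1975, a human lung adenocarcinoma cell line that carries the EGFR variants T790M and L858R, and from H1975–OR, a subline with the same EGFR variants that the study grew out of H1975 under continuous 500 nM osimertinib. Osimertinib is a tyrosine kinase inhibitor of mutant EGFR, and 1,25(OH)2D3 is the hormone made from vitamin D3 that activates the vitamin D receptor. There were 5 groups of 3 libraries, lettered a, b, and c. Group 1 was H1975 given vehicle and group 2 was H1975–OR given vehicle. The other H1975–OR groups received 1,25(OH)2D3 at 100 nM (group 3), osimertinib at 500 nM (group 4), or the combination of these doses (group 5). Cells were treated for 96 h, with additions at 0, 48, and 92 h, in medium with charcoal-stripped serum, and the libraries of a group came from separate passages. H1975–OR is a single subline, so its differences from H1975 are those of that subline. It was kept in osimertinib until plating, and the treatment medium of its vehicle and 1,25(OH)2D3 groups is listed without the drug.

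S100 proteins are small, mostly dimeric proteins with a pair of EF-hand motifs. For most of them, calcium binding exposes a surface that docks onto partners such as annexins, nonmuscle myosin, ezrin, or p53, and some are also secreted and bind receptors such as RAGE. Several are regulated with epithelial and mesenchymal state, and S100A4 is widely used as a marker of fibroblasts and of migrating carcinoma cells. Most S100 genes lie side by side in a cluster on chromosome 1.

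Levels are given as CPM, the counts of a gene scaled to one common library size, over all 15 libraries together by TMM, which corrects for library composition. Library totals lay between 4378030 and 6140120 estimated counts, and the 10 genes together took 0.372% to 0.869% of a library. S100A6 alone made up between 66.9% (Sample 1c) and 77.0% (Sample 5b) of those counts. The 5 epithelial marker genes examined (EPCAM, KRT8, KRT18, KRT19, CDH1) were each above 3 counts in at least 1 library of each group and summed to between 2607 and 4196 CPM, and the sums reached at most 39.5 CPM for 3 haematopoietic markers, with CD3E listed at 0 in each library, and 12.6 CPM for 2 endothelial markers. The lung adenocarcinoma markers NKX2-1, NAPSA, and SFTPB summed to 32.7 to 99.8 CPM, and NAPSA and SFTPB had at most 13 counts in a library. Sample 3a was left out of the tests, as the study did, and its values are given beside them.

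Of the 10 genes, 9 lie on chromosome 1 between positions 151982915 and 153631360 (GRCh38, GENCODE), and 7 of them, from S100A6 to S100A13, lie within 96.8 kb. S100P is on chromosome 4. All 9 genes on chromosome 1 are transcribed from the minus strand. The S100A3 gene lies inside the annotated span of S100A4 on the same strand, so reads that fall in shared sequence cannot be assigned with certainty to either. S100A13 overlaps S100A1 on the opposite strand. The 250 bases before the RefSeq start (GRCh38.p14) are shown for S100A4 and S100A10, whose counts were higher in H1975–OR cells, and for S100A2, whose counts were lower, each 5′ to 3′ on the strand of the gene, here the minus strand. Capitals mark matches to a TATA box (TATAAA), an AP-1 site (TGANTCA), or an E-box bound by ZEB and SNAI factors (CAGGTG), searched on both strands.
S100A4: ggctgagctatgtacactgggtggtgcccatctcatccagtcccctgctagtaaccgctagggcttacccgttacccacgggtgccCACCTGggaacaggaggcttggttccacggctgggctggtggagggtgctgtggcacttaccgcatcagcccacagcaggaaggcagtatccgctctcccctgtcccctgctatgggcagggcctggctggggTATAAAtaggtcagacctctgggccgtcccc
S100A10: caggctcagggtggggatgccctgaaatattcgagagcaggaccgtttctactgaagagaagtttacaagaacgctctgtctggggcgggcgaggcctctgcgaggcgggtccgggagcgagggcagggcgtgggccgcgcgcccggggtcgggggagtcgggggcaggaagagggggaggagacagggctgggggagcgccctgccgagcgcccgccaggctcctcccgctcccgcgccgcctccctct
S100A2: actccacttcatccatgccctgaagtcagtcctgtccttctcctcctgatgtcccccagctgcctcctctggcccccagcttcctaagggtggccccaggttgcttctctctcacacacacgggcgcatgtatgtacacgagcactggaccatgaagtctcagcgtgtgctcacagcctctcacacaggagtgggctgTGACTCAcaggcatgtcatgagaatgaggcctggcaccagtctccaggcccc
These windows are chr1:153545807-153546056 for S100A4, chr1:151993860-151994109 for S100A10, and chr1:153565845-153566094 for the first of the starts RefSeq gives S100A2. The S100A4 window holds a TATAAA 31 bases before the start and an E-box on the other strand 164 bases before it. The S100A2 window holds an AP-1 match 52 bases before the start, and the window of its second RefSeq start, not shown, holds an E-box on the other strand 18 bases before that start. The S100A10 window, with a GC content of 71.2%, holds none of the 3 motifs. Of 35116 RefSeq promoter windows of this length, 10.7% hold TATAAA, 6.57% the AP-1 letters, and 17.5% the E-box. Among the other members, an E-box lies 14 bases before the S100A14 start and at 191 and 178 bases before the first S100A16 start. An AP-1 match lies 225 bases before the S100A3 start, TATAAA 29 bases before the second S100A13 start and 28 bases before the S100P start, and an E-box 218 bases before the S100P start. The S100A6 and S100A11 windows hold none of the motifs.

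Levels per kb of transcript can be compared between genes if the counts were not already scaled for length. On this scale, S100A6 was the most abundant member in vehicle-treated H1975 cells at 6406 ± 930 CPM per kb (SD, n = 3). S100A10 followed at 649 ± 61.7 and S100A11 at 498 ± 104 CPM per kb (SD, n = 3). S100A13 (259 ± 22.7), S100A16 (191 ± 18.9), and S100A4 (163 ± 44.9) lay lower, also in CPM per kb. S100A2 (50.4 ± 14), S100A3 (23.3 ± 7.07), and S100A14 (10.1 ± 7.0) were low, and S100P, at 1.76 ± 0.942 CPM per kb, was close to undetected. In vehicle-treated H1975–OR cells the order at the top was S100A6 (11490 ± 2943), S100A10 (1278 ± 483), and then S100A4 at 421 ± 36.1 CPM per kb, above S100A11 at 318 ± 78.8.

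**Figure D1:**
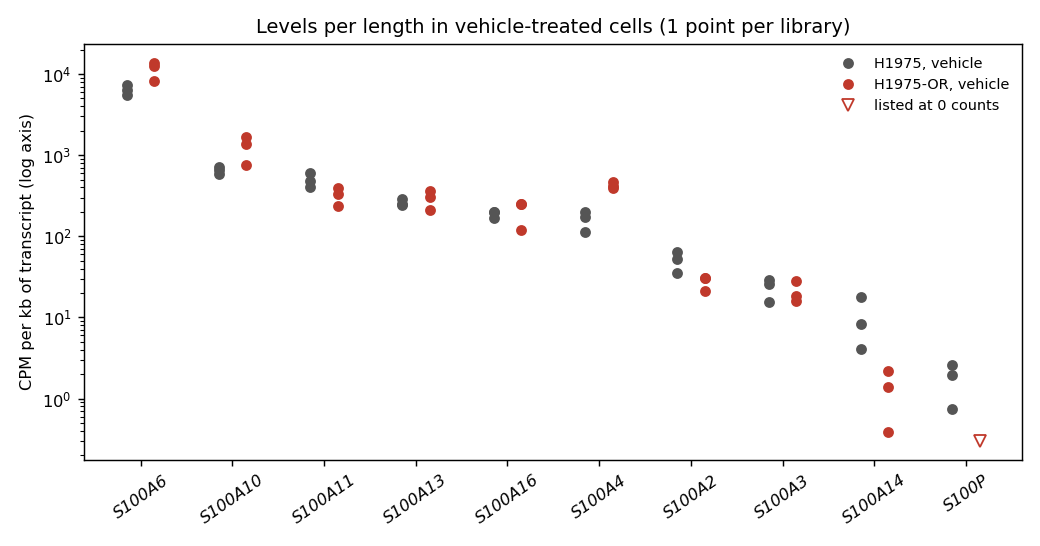
Levels per length of the 10 S100 genes in vehicle-treated cells. The y axis is CPM per kb of transcript on a log scale, each point is 1 library, and the open triangle at the lower edge marks S100P, listed at 0 counts in the 3 vehicle-treated H1975–OR libraries. The 3 points of S100A4 in H1975–OR cells lie above the 3 points of H1975 cells.

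The first comparison asked how the osimertinib-resistant subline differed from its parental line under vehicle. In edgeR's quasi-likelihood test with adjustment over all 12513 genes tested, 5 of the 9 members with enough counts passed an adjusted p of 0.05. S100A4, S100A6, and S100A10 were higher and S100A2 and S100A14 were lower in H1975–OR cells. Of all genes tested, 20.1% passed in this comparison. The 3 libraries of one line did not overlap the 3 of the other for 6 of the 9 members, against 39.2% of all genes tested. The median log2 fold change of the 9 members was 0.13, and that of all genes was 0.01.

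S100A4 binds nonmuscle myosin IIA and is known for its association with cell migration and metastasis. Its CPM were 103, 89.3, and 58.0 in H1975 cells and 200.1, 212, and 236 in H1975–OR cells. All H1975–OR libraries lay above all H1975 libraries, and the log2 fold change was 1.39 ± 0.20 (SE), a 2.61-fold rise (edgeR adjusted p = 0.00284). It was the member that passed in all 15 alternative analyses, with log2 fold changes of 1.16 to 1.55.

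S100A6, or calcyclin, binds the calcyclin-binding protein CACYBP and annexins. Its CPM were 2728, 3207, and 2405 in H1975 cells and 3537, 5471, and 5949 in H1975–OR cells, so the groups did not overlap, but Sample 2a lay well below the other H1975–OR libraries. The log2 fold change was 0.86 ± 0.20 (SE), a 1.81-fold rise (edgeR adjusted p = 0.0188). S100A10, also called p11, is the partner of annexin A2 and has EF hands that no longer bind calcium. It stood at 394, 477, and 435 CPM in H1975 cells and at 503, 932, and 1138 CPM in H1975–OR cells, again with Sample 2a lowest and no overlap. Its log2 fold change was 0.99 ± 0.27 (SE), a 1.99-fold rise (edgeR adjusted p = 0.0330).

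S100A2, a mainly nuclear S100 protein of epithelial cells that binds p53, moved the other way. Its CPM were 34.6, 51.2, and 61.9 in H1975 cells and 29.7, 20.7, and 29.7 in H1975–OR cells. The groups did not overlap, with Sample 1a close to the resistant libraries, and the log2 fold change was -0.87 ± 0.24 (SE), 1.82-fold lower (edgeR adjusted p = 0.0378). S100A14, another member found mainly in epithelia, was low throughout, at 4.33, 8.75, and 18.7 CPM in H1975 cells and 0.409, 1.45, and 2.31 CPM in H1975–OR cells. The latter values rest on 2, 7, and 12 counts. Its log2 fold change was -2.88 ± 0.72 (SE), 7.38-fold lower (edgeR adjusted p = 0.0241).

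The remaining members did not pass. S100A11, a partner of annexin A1, was at 229, 344, and 269 CPM in H1975 cells and at 186, 132, and 220 CPM in H1975–OR cells. These ranges did not overlap, and its log2 fold change of -0.63 ± 0.20 (SE) had an edgeR adjusted p of 0.0600, which DESeq2 placed at 0.0152 (range over the alternatives, 0.0152 to 0.179). S100A13, which takes part in the export of FGF1 from cells, had a log2 fold change of 0.20 with a 95% interval of -0.21 to 0.62. S100A16 had one of 0.13 (interval -0.43 to 0.70), and S100A3, which is best known from the hair cuticle, one of -0.15 (interval -0.96 to 0.65), and for these 3 genes the libraries of the lines overlapped. S100P, a member known from placenta and from carcinomas, had 2, 5, and 6 rounded counts in H1975 cells and 0 in each vehicle-treated H1975–OR library. It was too low to be tested. Its mean CPM in H1975 cells was 1.37 times a floor of 3 counts per library in H1975–OR cells. The floor covers counting error in H1975–OR cells only, and Sample 1a, at 2 counts, lay under it.

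All of these calls but that of S100A4 depended on single libraries. The call of S100A6 was lost without Sample 1a, 1c, 2b, or 2c (edgeR adjusted p of 0.0560 to 0.0749), and that of S100A10 without Sample 1a, 1b, 1c, 2b, or 2c (0.0803 to 0.0982). S100A14 was not called without Sample 1b, 1c, or 2b (0.0555 to 0.0864), and S100A2 without Sample 1b, 1c, 2b, 2c, 3b, or 3c (0.0584 to 0.118). With all 14 libraries in one fit, S100A2 and S100A10 also lost their calls (edgeR adjusted p of 0.260 and 0.0574). S100A2 was not called in the 2 compared groups alone either (0.0554). Of the 15 alternatives, S100A2 was called in 6, S100A10 in 8, S100A6 in 10, and S100A14 in 11. With Sample 3a kept in the fit, the log2 fold changes of S100A6, S100A10, and S100A14 were 0.86, 0.99, and -2.89, and their edgeR adjusted p 0.121, 0.0892, and 0.0895. S100A11 was called without Sample 1a or 2c (0.0458 and 0.0439), and S100A16 without Sample 2a at a log2 fold change of 0.39 (edgeR adjusted p = 0.0410). The directions of the 5 called members did not change in any of the 15 alternatives.

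Epithelial markers differed between the lines in the same libraries. The log2 fold changes in H1975–OR cells were -5.11 for CDH1, -3.69 for EPCAM, -1.74 for KRT19, and 0.38 for KRT18, each past the edgeR threshold. KRT8, at -0.07, did not pass. The 5 epithelial markers summed to 3564 to 4196 CPM in H1975 cells and 3087 to 3350 CPM in H1975–OR cells. Among the 4 mesenchymal markers, ZEB1 was higher (3.03) and FN1 lower (-3.65) on the log2 scale. VIM, at 0.51, did not pass (edgeR adjusted p = 0.0763) and its libraries overlapped, and CDH2 was too low to be tested. The part of cell state in the S100 differences was not tested. In bulk RNA, more cells with a transcript and more transcript per cell cannot be told apart.

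**Figure D2:**
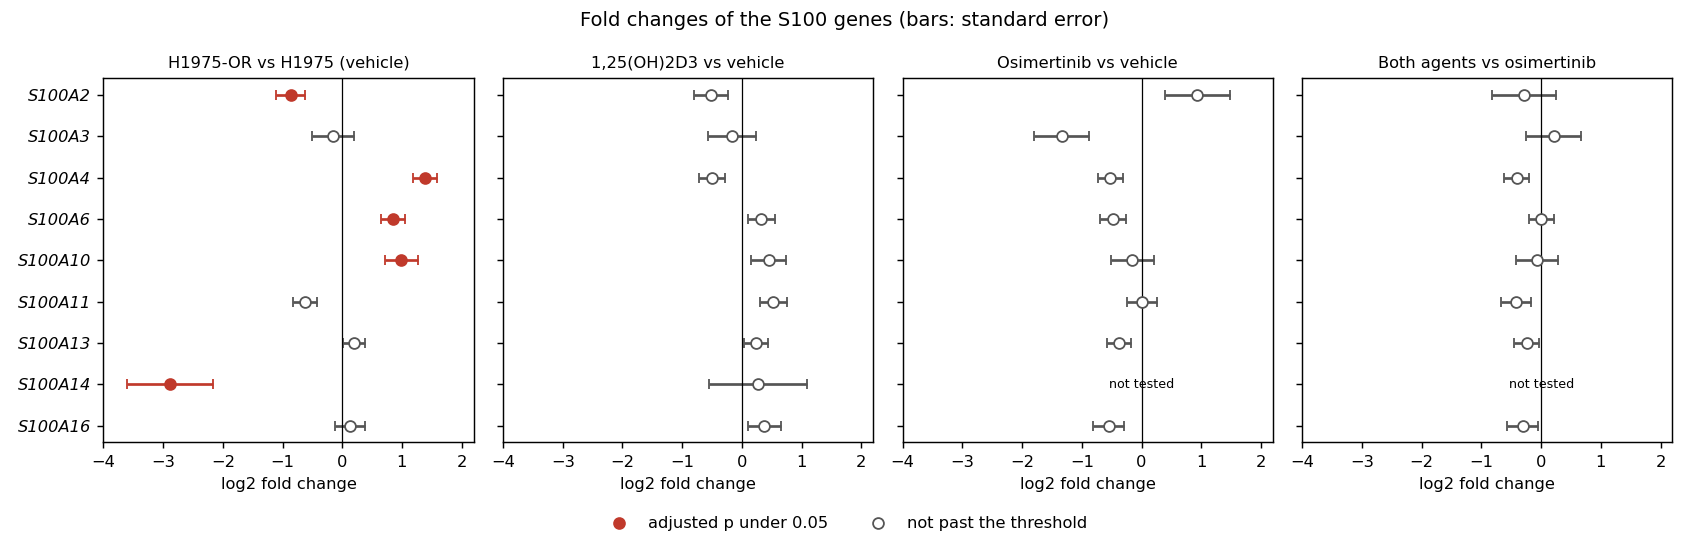
Log2 fold changes of 9 S100 genes in 4 comparisons, with bars of 1 standard error. Filled red points passed an edgeR adjusted p of 0.05, and they lie in the first panel, where S100A4, S100A6, and S100A10 are above 0 and S100A2 and S100A14 below it. S100A14 was too low to be tested in the panels with osimertinib, and S100P in all panels.

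Members that rose and fell lay next to each other in the cluster. Among the 7 members within 96.8 kb, S100A6 and S100A4 were higher, S100A2, the next member after S100A4 and S100A3, was lower, and S100A14 was lower between S100A16 (0.13) and S100A13 (0.20) on the log2 scale. S100A3, inside the span of S100A4, had a log2 fold change of -0.15, against 1.39 for S100A4. Between the first and last member on chromosome 1 the table holds 51 other genes, of which 4 were expressed enough to be tested (HRNR, FLG, IVL, S100A9). None of the 4 passed in any of the 4 comparisons between groups by edgeR.

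**Figure D3:**
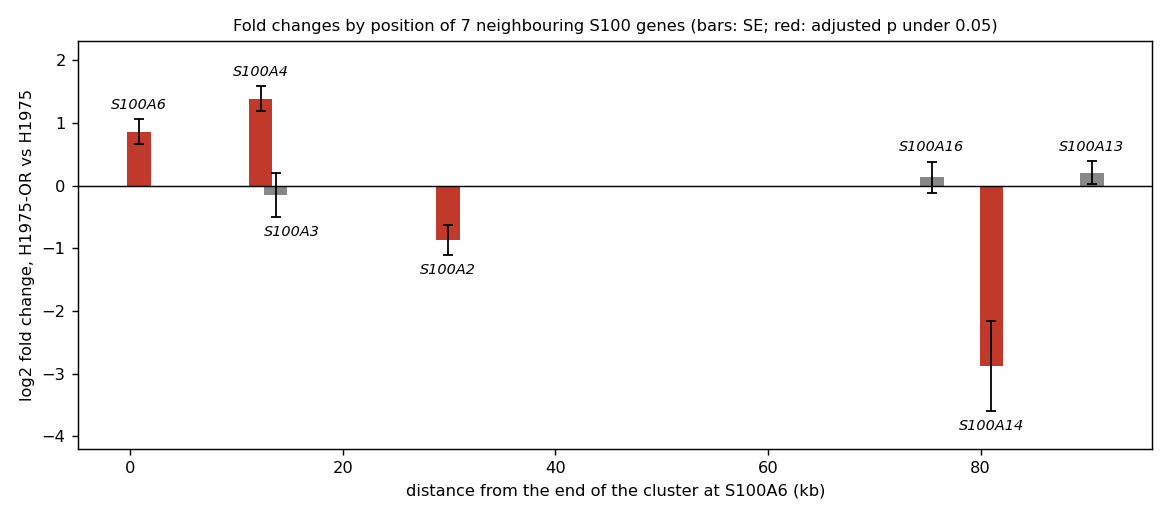
Log2 fold change in H1975–OR against H1975 cells (vehicle) for the 7 S100 genes from S100A6 to S100A13, by the distance of each gene's centre from the outer end of S100A6 in kb. Bars show the fold change, error bars 1 standard error, and red an edgeR adjusted p under 0.05. Genes that rose and fell lie next to each other.

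The second comparison asked what 1,25(OH)2D3 did to H1975–OR cells. None of the 9 members tested passed the edgeR threshold, as against 0.152% of all genes, 1 member had an unadjusted p under 0.05, and DESeq2 also called none. The same libraries showed a response of CYP24A1, the vitamin D-induced hydroxylase, whose log2 fold change was 7.71 (edgeR adjusted p = 0.000183). The libraries given 1,25(OH)2D3, without Sample 3a, did not overlap the vehicle libraries for 4 of the 9 members, and this held for 25.4% of all genes. S100A11 and S100A16 lay above and S100A4 and S100A2 below vehicle.

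S100A4 was at 165 and 141 CPM in Samples 3b and 3c and at 139 in Sample 3a, below the lowest vehicle library at 200.1. The log2 fold change was -0.50 ± 0.22 (SE), with a 95% interval of -1.005 to 0.005 (edgeR adjusted p = 0.688, and 0.196 to 1 over the alternatives). Between libraries of the same letter, Sample 3a included, log2(CPM + 2) was lower with 1,25(OH)2D3 in each of the 3 pairs, with differences of -0.52, -0.36, and -0.74. S100A2 was also lower in each pair, so that 2 of the 9 members were, against 17.4% of all genes, and S100A10 was higher in each.

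S100A11 was at 258 and 259 CPM in Samples 3b and 3c, above the vehicle range of 132 to 220, but at 173 CPM in Sample 3a. Its log2 fold change was 0.53 ± 0.22 (SE, edgeR adjusted p = 0.665), or 0.36 with Sample 3a. S100A16 was at 305 and 326 CPM in those libraries and at 139 CPM in Sample 3a, with log2 fold changes of 0.38 without and 0.08 with that library. S100A2 was at 17.8 and 19.3 CPM, and at 19.1 CPM in Sample 3a, against 20.7 to 29.7 CPM in the vehicle libraries. This gave -0.52 ± 0.28 (SE) on the log2 scale, the edgeR adjusted p being 0.756. Sample 3a also held 2647 CPM of S100A6 and 562 CPM of S100A10, against 5659 and 6829 CPM and 997 and 1342 CPM in the others of its group. With it the log2 fold changes of these genes went from 0.33 to 0.02 and from 0.45 to 0.18. S100A13 went from 0.23 to -0.09 and S100A14 from 0.28 to -0.33 when Sample 3a was kept, so their direction depended on that library.

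The third comparison was of osimertinib with vehicle in H1975–OR cells. None of the 8 members tested passed the edgeR threshold, which 0.048% of 12503 genes did, 2 had an unadjusted p under 0.05, and DESeq2 called none of them. DUSP6, a gene induced downstream of EGFR and MAPK signaling, had a log2 fold change of -1.48 in these libraries (edgeR adjusted p = 0.607). Of the 8 members, 6 had a negative log2 fold change, with a median of -0.43 for the 8 and 0.01 for all genes. The libraries of the groups did not overlap for 2 of the 8, S100A3 and S100A4, against 12.8% of all genes, and both were lower with osimertinib.

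S100A3 was at 9.13, 3.69, and 5.32 CPM with osimertinib and at 11.9, 13.7, and 20.6 CPM with vehicle. The osimertinib libraries were all below the vehicle ones, and Sample 4a came nearest to them. Its log2 fold change was -1.34 ± 0.46 (SE), with a 95% interval of -2.36 to -0.31 and an edgeR adjusted p of 0.518 (0.152 to 0.999 over the alternatives). S100A4 was at 115, 163, and 171 CPM with osimertinib, against 200.1 to 236 CPM with vehicle, and its log2 fold change was -0.53 ± 0.21 (SE, edgeR adjusted p = 0.589).

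S100A14 was listed at 0 in each osimertinib library, against 2, 7, and 12 counts with vehicle. Its mean CPM with vehicle was 2.32 times a floor of 3 counts per library with osimertinib. The floor covers counting error in the osimertinib libraries only, and a test was not run at these counts. S100A2 was at 95.1 CPM in Sample 4a and at 23.5 and 33.1 CPM in Samples 4b and 4c. Its log2 fold change of 0.93 ± 0.54 (SE) was 0.09 without Sample 4a, so the difference rested on that library. S100A6 (-0.47, interval -0.949 to 0.001), S100A16 (-0.55, interval -1.14 to 0.04), S100A13 (-0.38), S100A10 (-0.15), and S100A11 (0.01) overlapped between the groups on the log2 scale.

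Within pairs of the same letter, which deviated together between these groups, 4 of the 8 members tested were lower with osimertinib in all 3 pairs, against 18.3% of all genes. These were S100A3, S100A4, S100A6, and S100A13. The differences in log2(CPM + 2) for letters a, b, and c were -0.31, -0.62, and -0.46 for S100A6, and its edgeR adjusted p with the letter as a block was 0.0762 (0.0762 to 0.9995 over the alternatives). For S100A4 they were -0.79, -0.37, and -0.46, and for S100A13 -0.12, -0.72, and -0.22. S100A10 did not move one way, at 0.01, -0.28, and -0.14, and S100A2 was higher in each pair.

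Adding 1,25(OH)2D3 to osimertinib was the fourth comparison. None of the 8 members tested passed the edgeR threshold, against 0.096% of all genes, none had an unadjusted p under 0.05, and DESeq2 called none. No member had groups that did not overlap, against 7.93% of all genes, while CYP24A1 again had a log2 fold change of 7.06. S100A4 was at 79.4, 118, and 142 CPM with both agents, with a log2 fold change of -0.41 ± 0.21 (SE) and a 95% interval of -0.88 to 0.06. S100A11 was at 171, 92.4, and 143 CPM, at -0.42 ± 0.25 (SE) on the log2 scale. The log2 fold changes of S100A6 and S100A10 were 0.00 and -0.07, with intervals of -0.47 to 0.48 and -0.85 to 0.72. S100A14 had 1 count in Sample 5a and 0 in the others. Within same-letter pairs, 5 of the 8 members were lower with both agents in all 3, namely S100A4, S100A10, S100A11, S100A13, and S100A16, against 16.2% of all genes. S100A3 was higher in each pair. Some of these differences were near 0, at -0.069, -0.074, and -0.035 for S100A10 and -0.02, -0.568, and -0.378 for S100A16. The differences in log2(CPM + 2) were -0.52, -0.46, and -0.26 for S100A4 and -0.32, -0.65, and -0.33 for S100A11. With the letter as a block their edgeR adjusted p were 0.437 and 0.491, and they ranged over the alternatives from 0.315 and 0.343 to 1.

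For no member did the 1,25(OH)2D3 effect with osimertinib differ from that without it past the edgeR threshold, which 0% of genes passed. Over all genes edgeR called 0, with 330 at an unadjusted p under 0.05, and DESeq2 called 11. S100A11 had the lowest unadjusted p among the members, with a log2 difference of -0.95 ± 0.37 (SE), its own effects being 0.53 without and -0.42 with osimertinib (edgeR adjusted p = 1). S100A4 had a difference of 0.09, with a 95% interval of -0.62 to 0.79.

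**Figure D4:**
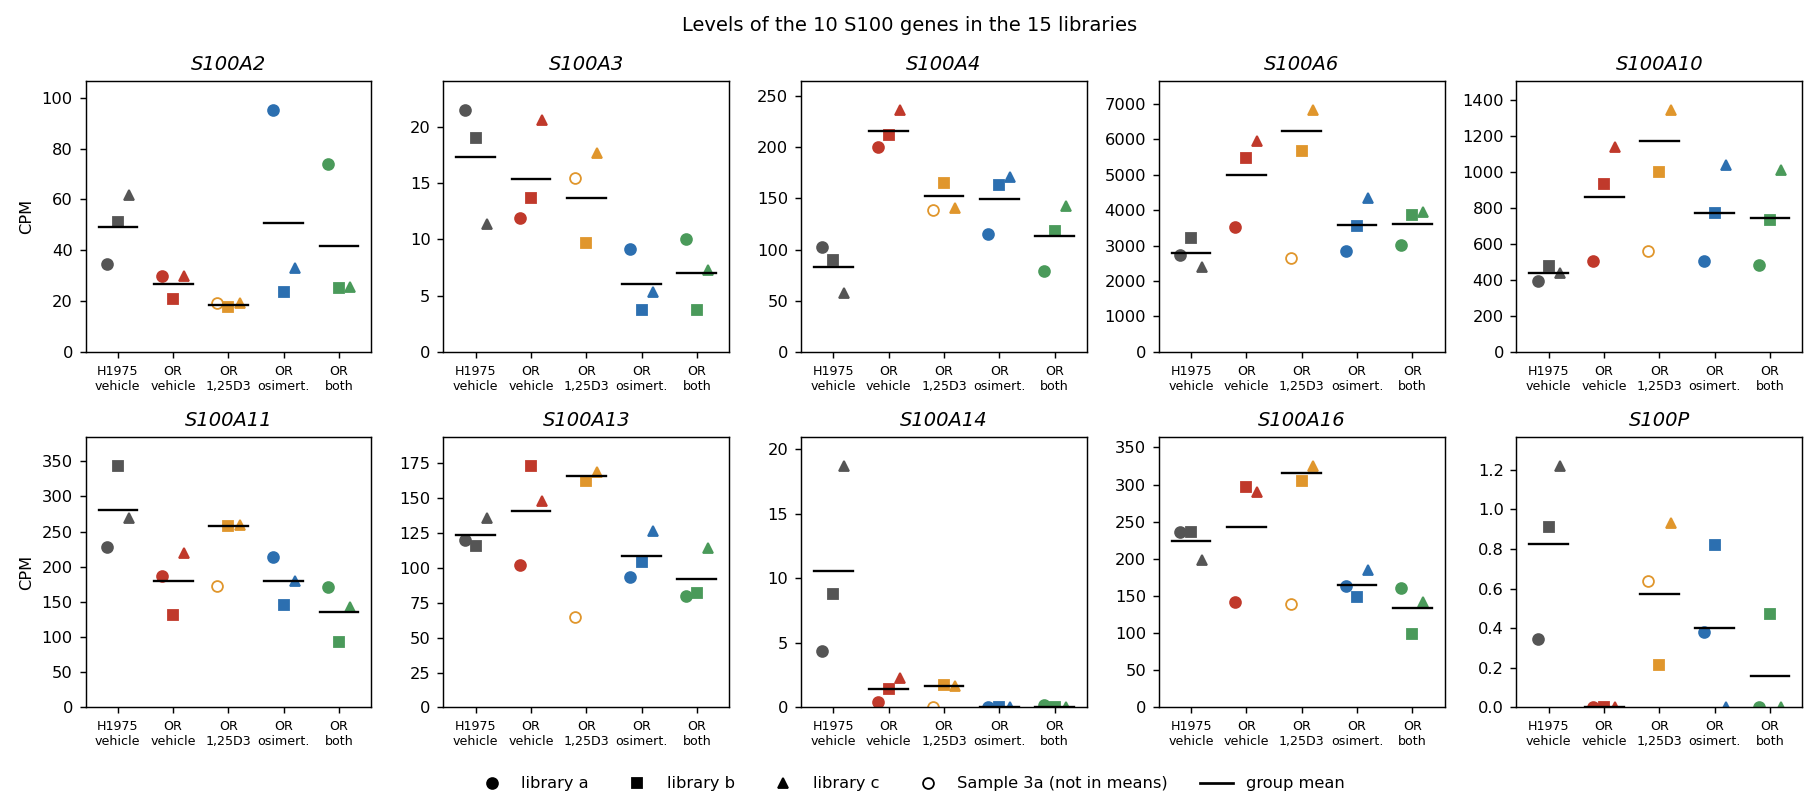
CPM of each S100 gene in the 15 libraries, by group, with 1 panel per gene and its own y axis from 0. Circles, squares, and triangles are libraries a, b, and c, the open circle is Sample 3a, and lines are group means without it. S100A4 is highest in vehicle-treated H1975–OR cells and lower in the other 4 groups.

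Over the 5 groups, mean S100A4 was highest in vehicle-treated H1975–OR cells at 216 ± 18.5 CPM (SD, n = 3). With 1,25(OH)2D3, without Sample 3a, it was 153 ± 17.3 CPM (SD, n = 2), with osimertinib 149.8 ± 30.5 CPM, with both agents 113 ± 31.8 CPM, and in H1975 cells 83.4 ± 23.0 CPM (SD, n = 3). Of these 4 steps, the first was the one at which neighbouring groups did not overlap. S100A10 was lowest in H1975 cells, where the next group, both agents at 741 ± 265 CPM, did not overlap it. That gap was narrow, between 477 CPM in Sample 1b and 482 CPM in Sample 5a. S100A6 had no step without overlap, from 6244 CPM with 1,25(OH)2D3 to 2780 CPM in H1975 cells. For S100A16 the steps from 1,25(OH)2D3 (315 CPM) to vehicle (243 CPM) and from H1975 (224 CPM) to osimertinib (165 CPM) did not overlap. All these 1,25(OH)2D3 means leave out Sample 3a, which held 2647 CPM of S100A6 and 139 CPM of S100A16. With that library the first S100A16 step overlapped. S100A14 had steps without overlap from H1975 cells (10.6 CPM) to 1,25(OH)2D3 (1.70 CPM) and from vehicle (1.39 CPM) to both agents (0.07 CPM). The latter gap lies between 2 counts in Sample 2a and 1 count in Sample 5a, both under the floor of 3 counts.

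The letter of a library also went with its S100 levels. In each of the 4 H1975–OR groups, library a was the lowest of its 3 for S100A4, S100A6, S100A10, and S100A13, 4 of the 9 members tested, as against 9.42% of 12627 genes. With 1,25(OH)2D3, library a is Sample 3a, which was left out of the tests but kept in this count and in the correlations below. For S100A10 the a libraries held 503, 562, 506, and 482 CPM and the c libraries 1138, 1342, 1036, and 1011 CPM. Over all genes, libraries of the same letter deviated together between H1975–OR vehicle and 1,25(OH)2D3 (correlations across genes of 0.192 to 0.34), vehicle and osimertinib (0.124 to 0.31), and osimertinib and both agents (0.258 to 0.464), but not between H1975 and H1975–OR vehicle (-0.03 to 0.022). Between 1,25(OH)2D3 and osimertinib the correlations were -0.014 to 0.267, and between 1,25(OH)2D3 and both agents 0.026 to 0.304. Letter b was the lowest in each, so these groups did not pair in all letters. What the letters stand for beyond separate passages is not given in the sources used here, and no member was called within the H1975–OR cells when the letter was a block.

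**Figure D5:**
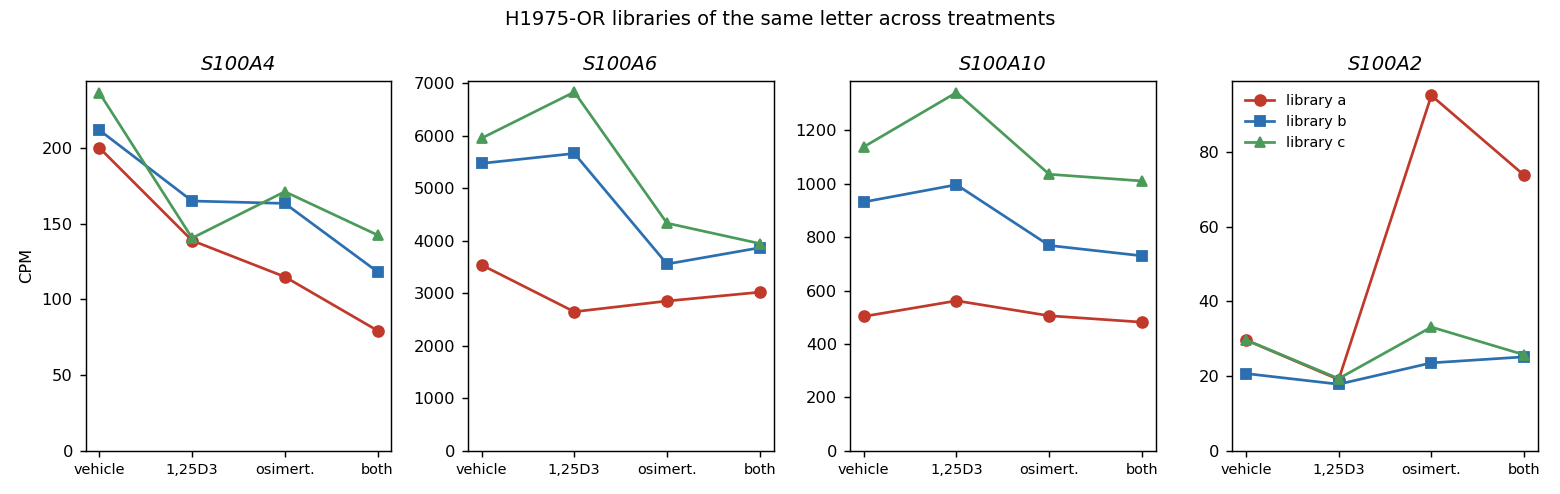
CPM of S100A4, S100A6, S100A10, and S100A2 in H1975–OR cells by treatment, with lines joining the libraries that share a letter. The a libraries, Sample 3a among them, lie lowest for the first 3 genes in each treatment. For S100A2 they lie highest with osimertinib (95.1 CPM) and both agents (73.8 CPM).

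The genes whose pattern over 14 libraries was most like that of a member were found by the root mean square difference of centred log2(CPM + 2) among 12626 genes. For S100A6 these were PRDX5 (0.149) and FRMD8 (0.183), and for S100A10 they were BMP2 (0.136) and RCN3 (0.187). S100A10 was the member most like S100A6, at 0.245 and rank 39, and S100A6 was at rank 17 for S100A10. For S100A4 the nearest were TSPYL2 (0.227) and MBLAC2 (0.261), for S100A2 HIP1R (0.316) and IL31RA (0.328), and for S100A14 EFNB2 (0.327) and ENTPD3 (0.365). The nearest member was S100A6 at rank 150 for S100A4, and S100A11 at rank 920 for S100A14 and rank 4053 for S100A2.

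Binding partners and receptors of S100 proteins were compared between the lines as well. Of 25 listed genes 23 were tested, and 7 were higher and 3 lower in H1975–OR cells by the edgeR test, with a median log2 fold change of 0.28 over the 23. Of all genes tested, 20.1% passed in either direction, and their median was 0.01. Higher were ANXA6 (1.54), ANXA1 (0.83), and ANXA5 (0.39) of the annexins, and BSG (1.13), which encodes basigin, a surface receptor bound by S100A9. FGF1 (2.65), the cargo of S100A13, was also higher on the log2 scale, but had only 2 to 20 counts in an H1975 library. So were PLAT (1.25), the tissue plasminogen activator that binds S100A10, and DLC1 (1.38), another protein that binds S100A10. CACYBP (-0.39), the partner of S100A6, EZR (-0.54), which encodes the S100P partner ezrin, and PLAU (-0.92), the urokinase plasminogen activator, were lower. None of the tested genes of the list passed in the other 4 comparisons by edgeR, where 3 of 23, 4 of 22, 0 of 22, and 2 of 22 had an unadjusted p under 0.05. Over all genes tested these counts were 910 of 12513 and 941, 520, and 330 of 12503.

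Among 20 other EF-hand proteins, 4 were higher in H1975–OR cells by the edgeR test, as were 1237 of all 12513 genes. These were CALM3 (1.21), PDCD6 (0.63), NUCB1 (0.63), and CHP1 (0.38), on the log2 scale. CALM3 encodes calmodulin, and reads in coding sequence that it shares with near-identical copies may have been split between them. The calls of ANXA5 and CHP1 held in 2 of the 15 alternatives, CACYBP in 3, ANXA1, EZR, and NUCB1 in 5, and PLAU in 6. FGF1 was called in 11, CALM3 in 12, and PDCD6 in 14, while ANXA6, DLC1, PLAT, and BSG were called in 15 of 15.

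Among the 10 other S100 genes listed, S100A9 alone had enough counts to be tested, and its values are given because they were seen to stand out. S100A9 forms calprotectin with S100A8. It was at 6.55, 25.6, and 21.0 CPM with vehicle and at 1.90, 1.64, and 1.64 CPM with osimertinib in H1975–OR cells, so the groups did not overlap. The log2 fold change was -3.34 ± 0.70 (SE), with an edgeR adjusted p of 0.219. Over the alternatives the adjusted p lay between 0.000112 with DESeq2 and 0.785. In H1975 cells S100A9 was at 19.1, 18.8, and 14.9 CPM, and its log2 fold change between the lines was 0.03 ± 0.42 (SE).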

How the data were processed

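RNA of the 15 cultures was sequenced as stranded, ribosome-depleted total RNA libraries on a NextSeq500. The authors quantified transcripts of hg38 with Kallisto and gathered them into genes with tximport. The deposited values are estimated counts per gene, not scaled for depth. The tximport settings are not named, so whether the counts were scaled for length is not known. The submitters' processing notes name CASAVA 1.8.2, STAR 2.5.2b, and kallisto 0.43.0. Counts were rounded, filtered by filterByExpr (minimum count 10, total 15), scaled by TMM, and compared with the quasi-likelihood test of edgeR 4.0.16 (limma 3.58.1, R 4.3.3), with Benjamini-Hochberg adjustment over all genes tested at 0.05. H1975–OR against H1975 and 1,25(OH)2D3 against vehicle used 8 libraries, and the comparisons with osimertinib used 11. SEs were derived from the log2 fold change and its F statistic. The script was tested on simulated data. DESeq2 1.42.0, RLE factors, no filter, a replicate block, other library sets, and leaving out single libraries were alternatives.

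Groups came from the sample titles. A gene of the EF-hand list is not reported here. Named genes are the members, and from the lists those past the threshold in a comparison. Members, lists, and tests were chosen with earlier results of these data known. The replicate letters met the pairing limit of 0.1 within H1975–OR for vehicle with each treatment and for osimertinib with both agents. Library totals set the precision, and floors of 3 counts cover only the counting error of the group at the floor.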

Additional observations from a re-analysis of the deposited data

Results flagged for a closer look

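S100P in Sample 3a, a library that the tests did not use, was at 0.636 CPM, above the vehicle-treated H1975–OR libraries, which were all listed at 0. The other 1,25(OH)2D3 libraries, 3b and 3c, held 0.215 and 0.929 CPM. These values come from 4, 1, and 5 rounded counts. S100P also reached 0.819 CPM (4 counts) with osimertinib and 0.470 CPM (2 counts) with both agents. Its mean CPM with 1,25(OH)2D3, without Sample 3a, was 0.947 times the floor of 3 counts in the vehicle libraries.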

How the results depend on the processing

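In 15 alternatives of H1975–OR against H1975, the number of S100 members called was 2 with Sample 3a kept and 3 with all 14 libraries in one fit, against 5, and ran from 1 to 6 when single libraries were left out. With the replicate block S100A2 lost its call (edgeR adjusted p = 0.0576), and the letters did not pair these lines; the block changed no other member call, and no member was called in the other comparisons under any alternative run. Genes called in that comparison were 1636 with Sample 3a kept, against 2521, and 1426 to 2835 without single libraries. For 1,25(OH)2D3 against vehicle they were 32 with no filter, 9 with the replicate block, 124 with DESeq2, 29 with all 14 libraries, 9 in the compared groups alone, and 12 and 48 in 11 H1975–OR libraries without and with the block (chosen after seeing the data), against 19, and 5 to 18 without single libraries. For osimertinib against vehicle they were 35 with the replicate block, 117 with DESeq2, 12 with all 14 libraries, and 2 and 0 in the compared groups alone without and with the block, against 6, and 1 to 29 without single libraries. For both agents against osimertinib they were 33 with the replicate block, 66 with DESeq2, 5 with Sample 3a kept, and 2 in the compared groups alone, against 12, and 3 to 14 without single libraries. For 1,25(OH)2D3 effects compared with and without osimertinib they were 11 with DESeq2, against 0, and 0 to 1 without single libraries.

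Directions changed for members that did not pass. With 1,25(OH)2D3, S100A14 was at -0.029 with the replicate block and -0.33 with Sample 3a, and S100A13 at -0.093 with Sample 3a, on the log2 scale. The difference of S100A2 between the 1,25(OH)2D3 effects was -0.10 with the block. Without single libraries, log2 fold changes between the lines were -0.423 to 0.017 for S100A3 and -0.036 to 0.388 for S100A16. With 1,25(OH)2D3 they were -0.67 to 0.20 for S100A3 and -0.15 to 0.85 for S100A14, and with osimertinib -0.42 to 0.11 for S100A10 and -0.17 to 0.19 for S100A11. For both agents against osimertinib they were -0.35 to 0.21 for S100A10, -1.001 to 0.546 for S100A2, -0.14 to 0.64 for S100A3, and -0.14 to 0.16 for S100A6. The differences between the 1,25(OH)2D3 effects were -0.49 to 1.06 for S100A2 and -0.11 to 0.28 for S100A4. The cause of these changes was not tested. With 2 or 3 libraries per group, S100A14 and S100P lay near the limit that the depth allows.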
